A study of Arabidopsis thaliana with 9 samples.

Results

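The cytosolic ribosomal protein genes examined here are 53 genes of 25 families, each given by its locus identifier, out of 38194 gene rows in each library. They comprise 26 genes of the large 60S subunit, 26 genes of the small 40S subunit and RACK1A, a scaffold protein bound to the small subunit. The genes were taken from a list of identifiers, with no measured value in the rule, and 20 of the families had at least 2 members. RNA was measured by RNA-Seq in whole Arabidopsis thaliana seedlings of the Columbia accession, 4 days old and grown at 23 °C with 16 h of light and 8 h of dark. In OE APOLO, per the labels, the 35S promoter of a plant virus, active in most tissues, drives APOLO, a long noncoding RNA (lncRNA) of Arabidopsis. In OE UPAT that promoter drives UPAT, an lncRNA from human. WT carried neither transgene. Each overexpressor was 1 transgenic line, so that a line and its transgene cannot be told apart. Each group had 3 libraries, A, B and C, which the study describes as independent biological replicates. The comparisons ask how these genes differ between each overexpressor and WT, and between both overexpressors.

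The cytosolic ribosome of plants is built from ribosomal RNAs and a set of proteins, each of which occurs once or a few times per particle. In Arabidopsis nearly every one of these proteins is encoded by a small family of paralogs, and several paralogs can be active in the same cell. Products of the paralogs compared here were between 75% and 100% identical. Ribosomal protein transcripts are abundant in growing tissues, and their genes are known for being switched on together where cells divide. The kinase TOR and its target S6 kinase are known to promote their translation and to lead to phosphorylation of the small-subunit protein RPS6.

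Total counts lay between 7901946 and 14112670 per library, and the 3 OE UPAT libraries were the smallest. Levels are given as CPM (counts relative to library size, scaled by TMM across libraries). The APOLO transcript (AT2G34655) had from 0.5 to 3 counts in the 9 libraries, with 1, 3 and 3 counts in the OE APOLO-labelled libraries and 2, 2 and 2 in WT. An excess of APOLO was thus not detected, and every direction given for the OE APOLO-labelled libraries rests on that label. UPAT, being human, was not analysed here, and its label was not checked. The 53 genes had from 35 to 4048 counts per library, and all 53 passed the filter on low counts. They took 0.472, 0.443 and 0.371% of the gene counts in the OE APOLO-labelled libraries A, B and C, 0.574, 0.599 and 0.56% in OE UPAT and 0.527, 0.546 and 0.498% in WT. Library OE APOLO C stood apart: it had the lowest CPM of all 9 libraries for 52 of the 53 genes. Green-tissue markers summed to between 55166 and 63019 CPM in the OE APOLO-labelled libraries, between 57031 and 67097 in OE UPAT and between 50971 and 62305 in WT. Of the floral markers AG had 0 counts in all libraries, AP1 at most 1 count and AP3 at most 2. PI had 9 to 45 counts and SEP3 14 to 27, so floral marker transcripts were not all absent.

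Summed by subunit, the genes were lowest in the OE APOLO-labelled libraries and highest in OE UPAT. The 26 large-subunit genes summed to 2460.4, 2427 and 2004 CPM in the OE APOLO-labelled libraries, to 2912, 3148 and 3081 CPM in OE UPAT and to 2777, 2716 and 2639.9 CPM in WT. The 26 small-subunit genes summed to 2043, 2063 and 1696 CPM in the OE APOLO-labelled libraries, to 2465, 2669 and 2529 CPM in OE UPAT and to 2407, 2318 and 2261 CPM in WT. For both subunits the 3 groups did not overlap, and both sums differed between groups to nearly the same extent. The group mean of the OE APOLO-labelled libraries was 0.847 times that of WT for the large subunit and 0.83 times for the small subunit. The OE UPAT mean was 1.12 and 1.1 times that of WT. The ratio of the large-subunit sum to the small-subunit sum lay between 1.18 and 1.20 in the OE APOLO-labelled libraries, between 1.18 and 1.22 in OE UPAT and between 1.15 and 1.17 in WT. In whole seedlings, less RNA per cell and fewer cells rich in these transcripts cannot be told apart. A score over listed genes was given no p-value. With 3 libraries against 3 an exact permutation test cannot go under 0.10 (two-sided).

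**Figure D1:**
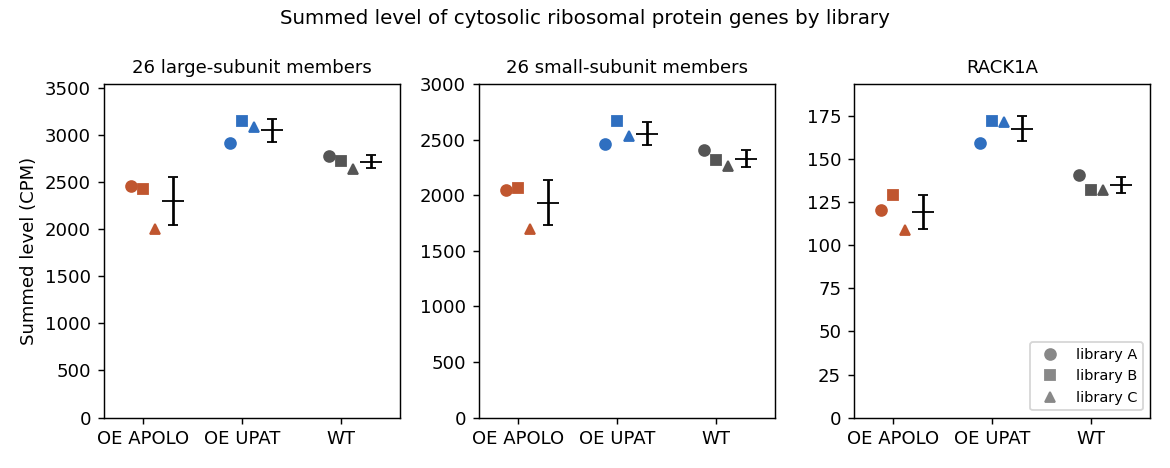
Summed level in CPM (vertical axis, from 0) of the 26 large-subunit genes, the 26 small-subunit genes and RACK1A in the OE APOLO-labelled libraries, in OE UPAT and in WT. Symbols are libraries A, B and C and bars are the group mean ± SD (n = 3): for both subunits OE UPAT lies highest, and library OE APOLO C lowest.

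The group mean of 45 of the 53 genes was highest in OE UPAT, intermediate in WT and lowest in the OE APOLO-labelled libraries. For 6 genes WT had the highest mean, and for 2 genes the OE APOLO-labelled libraries lay between OE UPAT and WT. Per kb of exon, the mean level over all libraries ranged from 4.47 CPM per kb for AT5G39850 of the RPS9 family to 151 CPM per kb for AT1G43170, an RPL3 gene whose product lies close to the catalytic centre. The median gene had 88.0 CPM per kb.

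Against WT, ribosomal protein genes were lower in the OE APOLO-labelled libraries: 7 of 53 fell and 0 rose at an edgeR FDR (Benjamini-Hochberg adjusted p) under 0.01. Over all 20021 genes tested, 2.27% fell and 4.27% rose. The median log2 fold change of the 53 genes was -0.25, and 51 of the 53 values were negative, where the median over all genes was near 0. For 33 of the 53 genes the 3 OE APOLO-labelled libraries lay below all WT libraries, which held for 15.1% of all genes tested. The genes that fell were 2 of 26 in the large subunit and 5 of 26 in the small subunit.

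Among the smallest p-values were those of a stalk protein and a small-subunit protein. AT3G09200 encodes P0, the base of the stalk on which elongation factors dock, and is on chromosome 3 from 2823088 to 2825241 (minus strand, TAIR10.1). It had 176, 168 and 140.2 CPM in the OE APOLO-labelled libraries, against 219, 223 and 206 CPM in WT (log2 fold change -0.42 ± 0.08 SE, edgeR FDR 0.0029). AT2G41840 of the RPS2 family (chromosome 2, 17459685 to 17461539, minus strand) had 169, 171 and 140.5 CPM in the OE APOLO-labelled libraries, against 224, 205 and 205 CPM in WT (-0.40 ± 0.08, edgeR FDR 0.00365). Both genes were lower in each of the 3 OE APOLO-labelled libraries than in any WT library, and library C was the lowest each time. The genes that fell also included AT2G19730 of the RPL28 family (-0.38), AT5G15200 of the RPS9 family (-0.36) and RPS13A (AT4G00100; -0.33).

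These calls depended on single libraries and on the fit. The number of genes that fell was 0 without OE APOLO C, 0 without WT A, 1 without WT B, 1 without WT C and 11 without OE APOLO A. It was 0 when only the OE APOLO and WT libraries were fitted (1.48% of all genes tested), and 15 with DESeq2 (2.28%). In the fits with 0 or 1 gene that left out a library, 0.906 to 1.65% of all genes tested fell. Without OE APOLO A 3.21% of them fell. At an unadjusted p under 0.05, 35 of the 53 genes were lower and 0 higher, against 12.4% lower and 14% higher over all genes tested. The median stayed negative throughout, between -0.30 and -0.17 over 18 alternatives, with -0.17 without OE APOLO C.

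In OE UPAT, 11 of the 53 genes rose and 0 fell against WT at an edgeR FDR under 0.01. Over all genes tested, 10.1% rose and 9.72% fell. The median log2 fold change of the 53 genes was 0.18 and 47 values were positive. All 3 OE UPAT libraries lay above all WT libraries for 30 of the 53 genes, and for 23.1% of all genes tested. The genes that rose were 6 of 26 in the large subunit, 4 of 26 in the small subunit and RACK1A.

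The smallest p-value was that of AT4G00810, which encodes an acidic P1 protein of the stalk (chromosome 4, 345911 to 347293, minus strand). It had 45.6, 50.2 and 51.4 CPM in OE UPAT, against 32.9, 34.1 and 33.1 CPM in WT (log2 fold change 0.56 ± 0.08 SE, edgeR FDR 9.23e-05). AT5G02870 encodes RPL4, which lines the exit tunnel of the nascent chain (chromosome 5, 657675 to 659800, plus strand), and had 144, 155 and 162 CPM in OE UPAT, against 119, 108 and 105 CPM in WT (0.48 ± 0.08, edgeR FDR 0.000331). In both genes the OE UPAT libraries lay clear of WT, while the OE APOLO-labelled libraries, at 31, 34.8 and 29.2 CPM for AT4G00810 and 108, 117 and 98.1 CPM for AT5G02870, overlapped with WT. The third was AT3G53870 of the RPS3 family, whose proteins line the entry of the mRNA channel. RPL24A (AT2G36620) rose by a log2 fold change of 0.46, both RPL23a genes, RPL23AB (AT3G55280) and RPL23AA (AT2G39460), by 0.41 and 0.33, AT5G07090 of the RPS4 family by 0.38 and RPL18 (AT3G05590) by 0.30. RACK1A (AT1G18080, chromosome 1, 6222201 to 6224242, plus strand) had 159, 172 and 171 CPM in OE UPAT, against 140.4, 132 and 132 CPM in WT (0.31 ± 0.07, edgeR FDR 0.00429). In the OE APOLO-labelled libraries it had 120.2, 129 and 109 CPM, all below WT, with a log2 fold change of -0.18 ± 0.07 that did not pass (edgeR FDR 0.135).

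Here too the count depended on libraries. The number of genes that rose was 4 without OE UPAT B, 4 without OE UPAT C, 4 without WT A, 5 without WT B and 4 without WT C. In these 5 fits 7.55 to 9.43% of the 53 genes rose, against 6.57 to 7.74% of all genes tested, so that their share was near that of all genes. The number was 18 when only OE UPAT and WT were fitted, a fit in which 1 gene also fell. In that fit 12.3% of all genes tested rose and 11.8% fell. AT4G00810, AT5G02870 and AT3G53870 kept their calls whenever 1 library was left out.

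Between the overexpressors the difference was wider, with OE UPAT above the OE APOLO-labelled libraries for all 53 genes by group mean. At an edgeR FDR under 0.01, 42 of 53 genes were higher in OE UPAT and 0 lower. Over all genes tested 8.49% were higher and 9.36% lower, or 1699 and 1874 genes. With upper-quartile factors this split of all genes turned to 2051 higher and 1510 lower, and 45 of the 53 ribosomal protein genes were higher. The median log2 fold change of the 53 genes was 0.42. For 49 of them all 3 OE UPAT libraries exceeded all 3 OE APOLO-labelled libraries, against 19.8% of all genes tested. By subunit, 21 of 26 large-subunit genes, 20 of 26 small-subunit genes and RACK1A were higher.

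Of the 42 genes, 7 had also fallen in the OE APOLO-labelled libraries against WT and 10 had risen in OE UPAT against WT, while 25 had passed neither comparison with WT. No gene both fell in the OE APOLO-labelled libraries and rose in OE UPAT. The 3 comparisons share libraries, so that these counts are not independent of each other. The smallest p-values were those of RPS6A (AT4G31700), with a log2 fold change of 0.71 ± 0.09 SE (edgeR FDR 4.06e-05), and AT4G00810 (0.63 ± 0.08, edgeR FDR 4.74e-05). Both genes stayed higher under each of the 20 alternatives, of which an adjusted p under 0.05 could not lose a call. The 11 genes that did not pass had log2 fold changes from 0.05 to 0.70, and 5 of them had under 13 CPM per kb. Without OE APOLO C the number that were higher was 24, and without OE UPAT B it was 22. Over all genes tested 6.38 and 5.7% were higher in these fits.

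**Figure D2:**
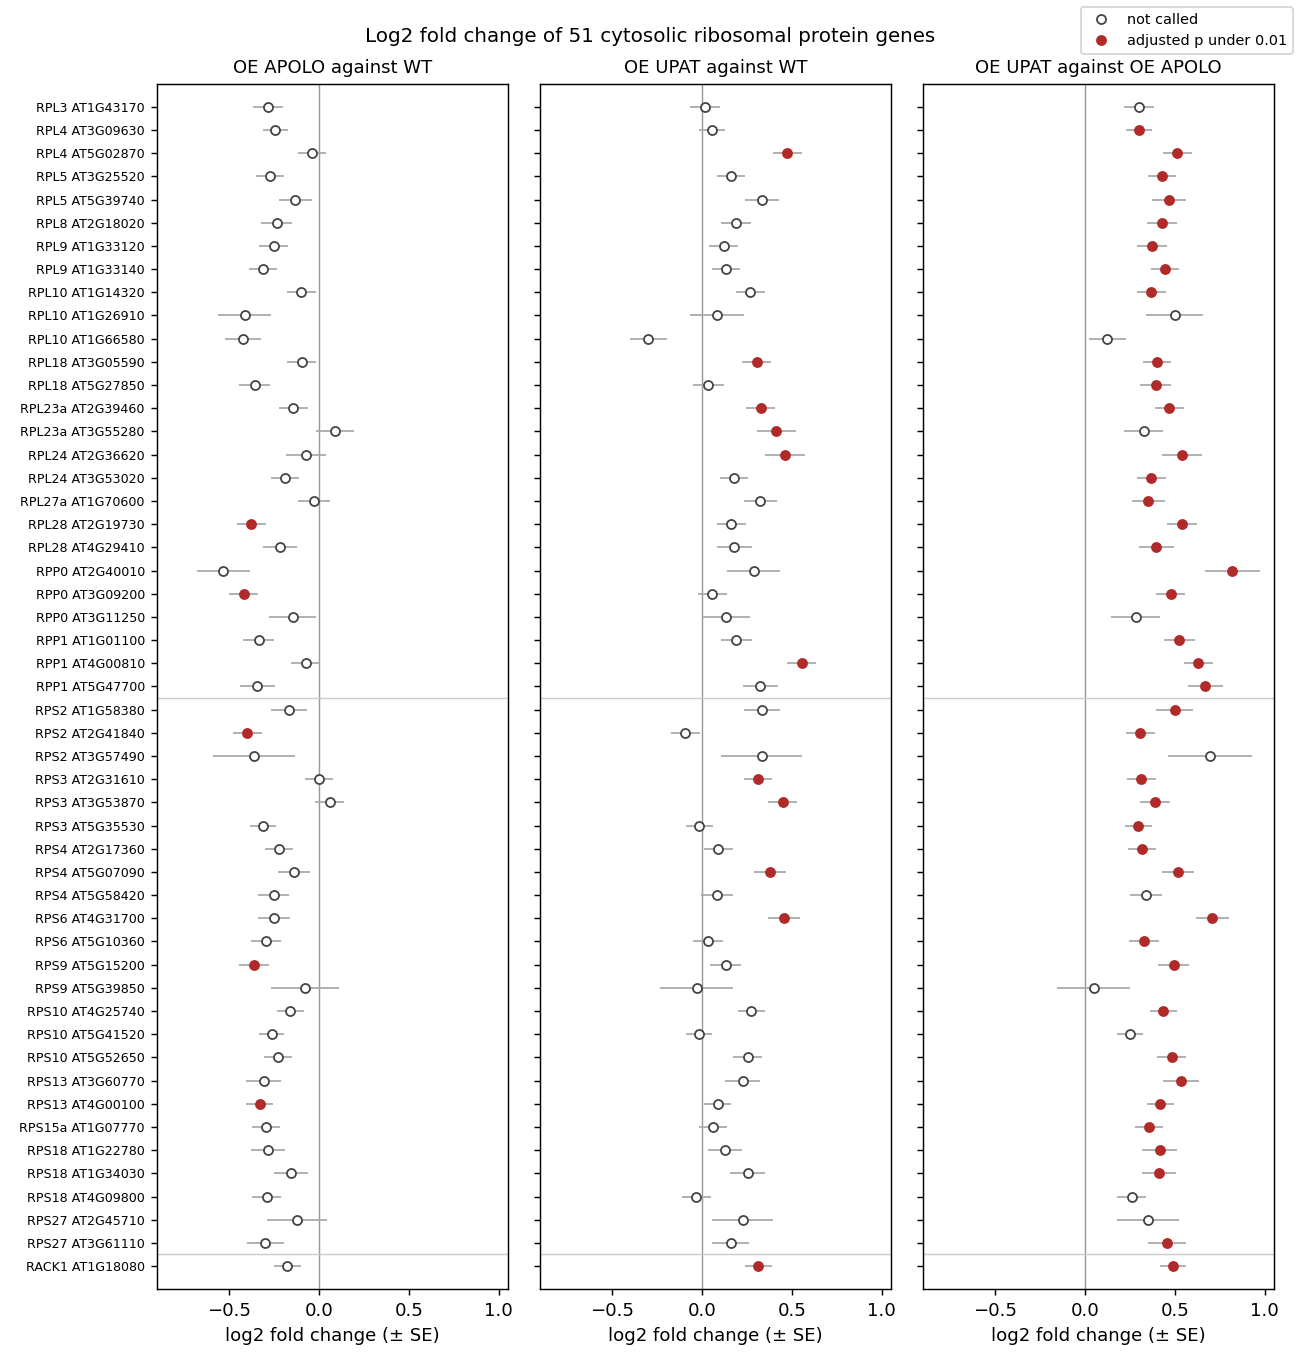
Log2 fold change ± SE (horizontal axis) of 51 of the 53 genes, listed by family and locus with the large subunit above, the small subunit below it and RACK1A last, for the OE APOLO-labelled libraries against WT, OE UPAT against WT and OE UPAT against the OE APOLO-labelled libraries. Filled points passed an edgeR FDR under 0.01: 5 lie left of 0 in the first panel, 11 right of 0 in the second and 40 right of 0 in the third.

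Paralogs of one family did not always move together. The share of a paralog in the level of its family, on CPM per kb of exon, does not depend on how a library is scaled, and was examined next. It is a description with no test, since 3 libraries against 3 cannot go under 0.10 in an exact permutation test. Of 48 genes in the 20 families, 19 had shares in the OE APOLO-labelled libraries that did not overlap with WT, 33 in OE UPAT against WT, and 24 in OE UPAT against the OE APOLO-labelled libraries. These came from 11, 16 and 12 of the 20 families, the shares in a pair of paralogs being mirror images. Shares were not computed for families of other genes, so how unusual these numbers are is not known. The comparisons with WT share the WT libraries, and their values are given side by side.

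In RPS3 the most abundant paralog per kb of exon differed between WT and both overexpressors. AT3G53870 (chromosome 3, 19951424 to 19953018, plus strand) had 98.5, 91 and 81.2 CPM in the OE APOLO-labelled libraries, 107, 125 and 124 CPM in OE UPAT and 86.6, 85.3 and 88.4 CPM in WT. It rose in OE UPAT against WT (0.45 ± 0.08 SE, edgeR FDR 0.000668), as did AT2G31610 (chromosome 2, 13450241 to 13451982, plus strand; 0.31 ± 0.08, edgeR FDR 0.00718). The call of AT2G31610 was lost without OE UPAT B, OE UPAT C or any one WT library, with edgeR FDR up to 0.0343 over the alternatives. AT2G31610 had 95.3, 92.7 and 78.8 CPM in the OE APOLO-labelled libraries, 105, 116 and 110.3 CPM in OE UPAT and 92.4, 90.2 and 84.5 CPM in WT. The third paralog, AT5G35530 (chromosome 5, 13710026 to 13712288, minus strand), had 95.2, 93.4 and 80.1 CPM in the OE APOLO-labelled libraries, 107, 113 and 110.1 CPM in OE UPAT and 115, 111 and 108 CPM in WT, and passed neither comparison with WT (log2 fold change -0.31 ± 0.07 in the OE APOLO-labelled libraries and -0.01 ± 0.07 in OE UPAT). Its share of the family was 33.0% ± 0.392 (SD, n = 3) in the OE APOLO-labelled libraries, 32.2% ± 0.96 in OE UPAT and 38.4% ± 0.374 in WT. AT5G35530 was thus the most abundant paralog per kb in every WT library, and AT3G53870 was in every library of both overexpressors. The order depended on exon length in OE APOLO B, where AT5G35530 had the highest CPM. Against AT5G35530 the proteins of AT2G31610 and AT3G53870 are 91.2% and 90.4% identical, and those 2 are 92.0% identical to each other.

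The stretches before these 3 genes differ more than their products, and are shown because 2 of them resemble each other and belong to the 2 paralogs that rose in OE UPAT. Each is 250 bases ending just before the annotated start, 5′ to 3′ on the gene's strand in TAIR10.1. They lie at chr2:13449991-13450240 (plus), chr3:19951174-19951423 (plus) and chr5:13712289-13712538 (minus). Capitals mark site II elements, TGGGCC or TGGGCT on either strand, which occur in promoters of growth-related plant genes.
AT2G31610: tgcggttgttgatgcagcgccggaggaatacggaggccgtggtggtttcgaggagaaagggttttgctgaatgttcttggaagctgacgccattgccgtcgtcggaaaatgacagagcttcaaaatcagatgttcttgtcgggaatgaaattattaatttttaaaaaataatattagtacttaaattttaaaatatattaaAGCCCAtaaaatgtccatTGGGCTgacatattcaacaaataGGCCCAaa
AT3G53870: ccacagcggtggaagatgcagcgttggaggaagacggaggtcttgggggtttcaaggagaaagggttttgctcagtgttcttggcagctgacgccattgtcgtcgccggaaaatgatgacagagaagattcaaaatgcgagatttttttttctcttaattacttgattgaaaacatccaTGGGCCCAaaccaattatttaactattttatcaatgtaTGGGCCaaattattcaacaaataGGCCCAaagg
AT5G35530: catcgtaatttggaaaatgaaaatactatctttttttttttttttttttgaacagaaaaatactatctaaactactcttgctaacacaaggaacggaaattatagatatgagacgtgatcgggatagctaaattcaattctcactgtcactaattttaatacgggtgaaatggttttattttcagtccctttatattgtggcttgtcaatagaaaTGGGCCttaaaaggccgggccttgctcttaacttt
AT2G31610 holds 3 matches, AT3G53870 4, of which 2 overlap as the palindrome on both strands, and AT5G35530 1. The stretches of AT2G31610 and AT3G53870 were 70.6% identical in a global alignment. Each was 47.2% and 47.3% identical to that of AT5G35530, where 1342 pairs of genes from different families ranged from 41.5 to 57.1% with a median of 50.2%. Over the 36 pairs of paralogs the median was 50.7%, so that most paralogs did not share this stretch. Whether the sequences bear on the levels was not tested.

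RPS6, the phosphorylated small-subunit protein, has 2 genes whose products are 94.8% identical. RPS6A (chromosome 4, 15345979 to 15347804, minus strand) had 85.8, 82 and 68 CPM in the OE APOLO-labelled libraries, 120.1, 134 and 132 CPM in OE UPAT and 98.1, 97.6 and 85.4 CPM in WT. It rose in OE UPAT against WT (0.46 ± 0.09 SE, edgeR FDR 0.00109). RPS6B (AT5G10360, chromosome 5, 3258404 to 3260254, minus strand) had 133, 131 and 109.7 CPM in the OE APOLO-labelled libraries, 148, 164 and 157 CPM in OE UPAT and 166, 150.3 and 143 CPM in WT, where OE UPAT overlapped with WT (0.03 ± 0.08, edgeR FDR 0.8). The share of RPS6A was 38.9% ± 0.503 (SD, n = 3) in the OE APOLO-labelled libraries, 45.4% ± 0.478 in OE UPAT and 38.2% ± 1.22 in WT. In this family the share in the OE APOLO-labelled libraries overlapped with WT, and that in OE UPAT stood above both. The 250 bases before each start, at chr4:15347805-15348054 for RPS6A and chr5:3260255-3260504 for RPS6B (both minus), are shown with the same marks because this pair had the widest gap in share between the overexpressors.
RPS6A: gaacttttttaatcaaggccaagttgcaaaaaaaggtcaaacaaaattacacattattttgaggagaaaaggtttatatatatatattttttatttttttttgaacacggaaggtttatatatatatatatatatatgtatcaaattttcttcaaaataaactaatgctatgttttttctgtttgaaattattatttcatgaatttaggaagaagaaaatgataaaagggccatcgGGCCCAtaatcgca
RPS6B: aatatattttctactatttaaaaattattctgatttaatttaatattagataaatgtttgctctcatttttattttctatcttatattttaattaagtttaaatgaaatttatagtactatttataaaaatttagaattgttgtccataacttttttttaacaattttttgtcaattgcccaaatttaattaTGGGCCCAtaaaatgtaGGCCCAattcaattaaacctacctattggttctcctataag
RPS6A held 1 match to a site II element and RPS6B 3, of which 2 overlap as the palindrome on both strands. With the 50 bases after the start included, RPS6A held 2 matches and RPS6B 3. The stretches of 250 bases were 56.3% identical.

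RPL10, a late-joining protein close to the catalytic centre, had the largest gap between paralogs in OE UPAT. SAC52, the annotated name of RPL10A (AT1G14320, chromosome 1, 4888114 to 4889704, plus strand), had 174, 165 and 141 CPM in the OE APOLO-labelled libraries, 191, 215 and 213 CPM in OE UPAT and 173, 170.4 and 171 CPM in WT. SAG24, or RPL10C (AT1G66580, chromosome 1, 24839090 to 24840806, plus strand), had 142, 125 and 99.3 CPM in the OE APOLO-labelled libraries, 126, 137 and 136 CPM in OE UPAT and 171, 157 and 163 CPM in WT. Every library of both overexpressors was below WT for SAG24, and neither change passed (-0.42 ± 0.10 SE in the OE APOLO-labelled libraries, edgeR FDR 0.0103, and -0.30 ± 0.10 in OE UPAT, edgeR FDR 0.0338). RPL10B (AT1G26910) was scarce, with 6.06, 6.74 and 5.26 CPM in the OE APOLO-labelled libraries, 8.88, 7.73 and 9.03 CPM in OE UPAT and 9.28, 7.92 and 6.92 CPM in WT. SAC52 made 53.2% ± 1.66 of the family in the OE APOLO-labelled libraries, 56.9% ± 0.666 in OE UPAT and 47.5% ± 0.937 in WT (SD, n = 3), and the 3 groups did not overlap. SAC52 and SAG24 share 2.31% and 2.23% of their 75-base windows with each other, a stretch in which reads could not be assigned to one of them.

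In the RPL4 pair, AT5G02870 rose in OE UPAT and AT3G09630 (chromosome 3, 2953693 to 2955748, plus strand) had 134, 126 and 116 CPM in the OE APOLO-labelled libraries, 148, 156 and 159 CPM in OE UPAT and 154, 146 and 145 CPM in WT. AT5G02870 made 46.1% ± 1.69 of the family in the OE APOLO-labelled libraries, 49.8% ± 0.551 in OE UPAT and 42.6% ± 0.831 in WT (SD, n = 3), again with no overlap between groups. Both proteins are 95.3% identical.

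**Figure D3:**
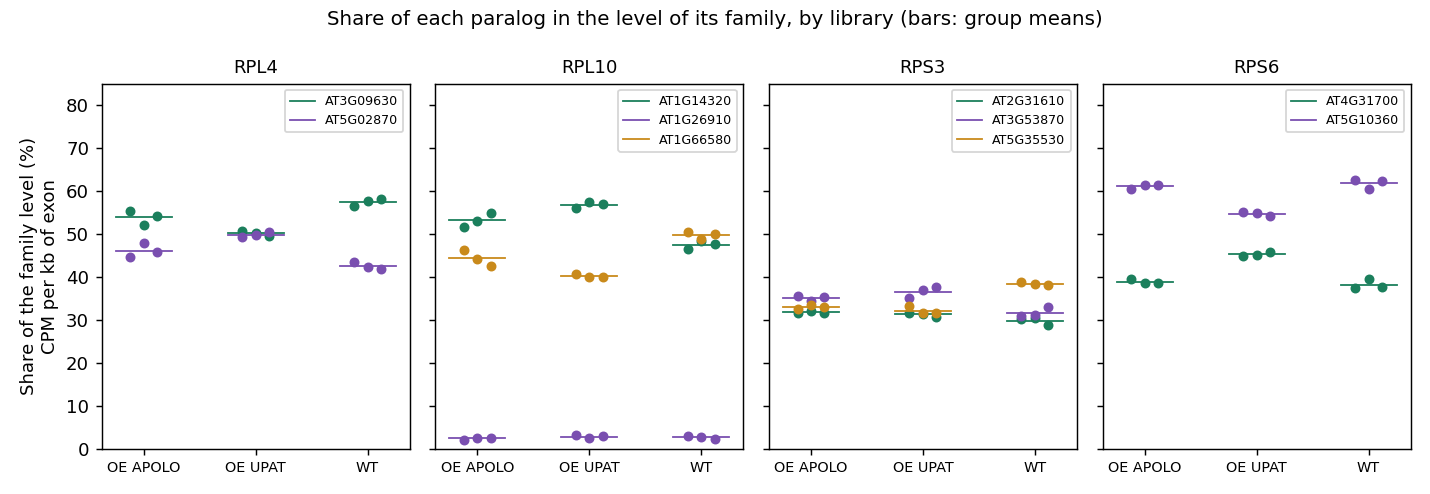
Share of each paralog in the summed level of its family, in % on CPM per kb of exon (vertical axis), for RPL4, RPL10, RPS3 and RPS6 in the OE APOLO-labelled libraries, in OE UPAT and in WT. Points are libraries and lines group means: AT5G35530 of RPS3 leads its family in WT alone, and RPS6A takes 45.4% of RPS6 in OE UPAT.

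The RPS2 family is led by AT2G41840, which fell in the OE APOLO-labelled libraries and had 198, 203 and 193 CPM in OE UPAT, just below WT (-0.09 ± 0.08 SE, edgeR FDR 0.406). XW6 (AT1G58380, chromosome 1, 21688935 to 21690290, plus strand) had 17.8, 17.5 and 14.5 CPM in the OE APOLO-labelled libraries, 21.2, 25.2 and 24 CPM in OE UPAT and 17.8, 19.3 and 18.9 CPM in WT, and in OE UPAT did not pass (0.33 ± 0.10, edgeR FDR 0.0197). XW6 shares 18% of its windows with AT1G58983, so its level is uncertain. AT3G57490 had 4.49, 5.11 and 3.45 CPM in the OE APOLO-labelled libraries, 6.03, 6.86 and 8.51 CPM in OE UPAT and 5.04, 7.72 and 4.04 CPM in WT, and groups overlapped with WT in both lines.

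In the P0 family the main gene AT3G09200 fell in the OE APOLO-labelled libraries and in OE UPAT had 222, 229 and 223 CPM, which overlapped with WT. AT2G40010 (chromosome 2, 16708379 to 16710772, minus strand) had 5.01, 5.78 and 4.14 CPM in the OE APOLO-labelled libraries, 7.89, 9.48 and 9.16 CPM in OE UPAT and 7.27, 7.58 and 6.84 CPM in WT. The 3 groups did not overlap, and OE UPAT was higher than the OE APOLO-labelled libraries (0.82 ± 0.15 SE, edgeR FDR 0.00102), the largest difference among the 53 genes. This gene shares 37.4% of its windows with AT2G40008, which overlaps it on the other strand, and reads of both may not have been told apart. AT3G11250 had 19, 13.9 and 12.9 CPM in the OE APOLO-labelled libraries, 16.3, 19.4 and 20.3 CPM in OE UPAT and 16, 18.4 and 16.6 CPM in WT, with overlap throughout.

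RPS9 was nearly all AT5G15200 (chromosome 5, 4934810 to 4936429, minus strand), with 173, 179 and 141 CPM in the OE APOLO-labelled libraries, 218, 238 and 238 CPM in OE UPAT and 215, 212 and 206 CPM in WT (-0.36 ± 0.08 SE in the OE APOLO-labelled libraries, edgeR FDR 0.00965). This call was lost in 10 of 20 alternatives, among them the replicate block and the fits without OE APOLO C or without any one OE UPAT or WT library. Its paralog AT5G39850 had 5.42, 5.07 and 3.02 CPM in the OE APOLO-labelled libraries, 4.61, 4.57 and 4.84 CPM in OE UPAT and 4.96, 4.82 and 4.51 CPM in WT. AT5G39850 had the smallest difference between the overexpressors of all 53 genes, 0.05 ± 0.20.

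Other families divided as well. RPL18 (AT3G05590) made 54.3% ± 0.873 of its pair in the OE APOLO-labelled libraries, 54.3% ± 1.17 in OE UPAT and 49.7% ± 0.681 in WT (SD, n = 3). AT5G07090 made 33.4% ± 0.578 of the RPS4 family in the OE APOLO-labelled libraries, 36.5% ± 0.645 in OE UPAT and 31.9% ± 0.576 in WT, although the 3 RPS4 proteins are at least 98.5% identical. RPS10B (AT5G41520) made 47.4% ± 0.981 of RPS10 in the OE APOLO-labelled libraries, 43.8% ± 0.634 in OE UPAT and 48.6% ± 0.212 in WT. The 2 RPL9 genes, AT1G33120 and PGY2 (AT1G33140), encode identical proteins and share 52.1% and 53% of their windows, and their shares overlapped between all groups. The 3 RPS18 genes encode identical proteins too, and RPS18C (AT4G09800) was the most abundant of them per kb.

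Of the families not yet described, RPL3 (AT1G43170), RPL8 (EMB2296, AT2G18020), RPL27a (AT1G70600) and RPS15a (AT1G07770) had 1 gene each. These 4 passed neither comparison with WT, with log2 fold changes from -0.29 to -0.03 in the OE APOLO-labelled libraries and from 0.02 to 0.32 in OE UPAT. Between the overexpressors RPL8, RPL27a and RPS15a passed (0.43, 0.35 and 0.36), and RPL3 did not (0.30, edgeR FDR 0.0117). RPL5A (AT3G25520) and RPL5B (AT5G39740), which bind the 5S ribosomal RNA, passed only between the overexpressors (0.43 and 0.47). In RPL24, RPL24A rose in OE UPAT while STV1 (AT3G53020), known in Arabidopsis for reinitiation after upstream reading frames, did not pass (0.18 ± 0.08 SE, edgeR FDR 0.104). Of the P1 genes AT1G01100 and AT5G47700 passed only between the overexpressors (0.53 and 0.67). AT4G29410 of RPL28, AT3G60770 of RPS13 and RS27A (AT3G61110) of RPS27 did so as well (0.40, 0.53 and 0.46), and AT2G45710 of RPS27 passed nowhere.

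To see how far the pattern went beyond the 53 genes, further lists were read from the same fit. Of 20 paralogs of the same families, 14 were tested: 1 fell in the OE APOLO-labelled libraries, and 7 rose in OE UPAT. Between the overexpressors 10 of the 14 were higher in OE UPAT and 0 lower (71.4% higher, median 0.50). AT1G59359, AT1G58684 and AT1G58983, 3 of these 14, held identical values. All 3 are among the 7 and among the 10, so that 1 set of values is counted 3 times in these numbers. RACK1B (AT1G48630) had 41.6, 37.8 and 38.7 CPM in OE UPAT, against 28.2, 28.7 and 29.8 CPM in WT (0.45 ± 0.08 SE, edgeR FDR 0.000462), and RACK1C (AT3G18130) rose by 0.66, so that all 3 RACK1 genes rose. RPS15AD (AT3G46040) had 37.4, 35.1 and 26.9 CPM in the OE APOLO-labelled libraries, against 47.1, 45.3 and 44 CPM in WT (-0.45 ± 0.10, edgeR FDR 0.00656). Of 153 other genes that the annotation words as ribosomal proteins, and which may include genes of other function, 141 were tested. In the OE APOLO-labelled libraries 17 of the 141 fell and 0 rose (12.1% fell, median -0.20), and in OE UPAT 27 rose and 2 fell (19.1% rose, median 0.20). Between the overexpressors 93 of the 141 were higher in OE UPAT and 0 lower (66% higher, median 0.41). AT3G13580 had the smallest p-value in the OE APOLO-labelled libraries, with 58.1, 49.1 and 43.5 CPM against 79.9, 70.6 and 75.7 CPM in WT (-0.58 ± 0.09, edgeR FDR 0.000643). In OE UPAT these were AT3G06700, with 109, 109.7 and 107 CPM against 73.2, 74.4 and 73.6 CPM in WT (0.56 ± 0.08, edgeR FDR 7.88e-05), and, of those that fell, RPL18AA (AT1G29970), with 30.4, 41.6 and 37.4 CPM against 53.5, 52 and 58.7 CPM in WT (-0.58 ± 0.10, edgeR FDR 0.00035).

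Nuclear genes of plastid ribosomal proteins were examined next. Of 32 such genes 28 rose in OE UPAT against WT and 0 fell, with a median log2 fold change of 0.53. In the OE APOLO-labelled libraries 0 rose and 0 fell, and the median was 0.09. Between the overexpressors 26 of the 32 were higher in OE UPAT (81.2%, median 0.42), close to the 79.2% and 0.42 of the 53 genes. Among the green-tissue markers, RBCS3B (AT5G38410), a gene of the small Rubisco subunit, had 7666, 8772 and 9780.5 CPM in OE UPAT, against 5824, 4811 and 5990.4 CPM in WT (0.66 ± 0.12, edgeR FDR 0.000482), and 2 of the 6 markers rose. The list had 3 positive and 3 negative values in OE UPAT, with a median of 0.04, CAB2 (AT1G29920) having the lowest (-0.27).

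Of 24 ribosome biogenesis genes 2 rose in OE UPAT (8.33%, median 0.15), a share not above the 10.1% of all genes tested. In the OE APOLO-labelled libraries 0 passed (median -0.16). Between the overexpressors 7 of the 24 were higher in OE UPAT and 0 lower (29.2% higher, median 0.29), against 8.49% higher over all genes tested. NUC-L1 (AT1G48920), a nucleolin, had 216, 236 and 222 CPM in OE UPAT, against 179, 174 and 181 CPM in WT (0.34 ± 0.07 SE, edgeR FDR 0.00164). Of 21 translation factor genes 3 fell in the OE APOLO-labelled libraries (14.3%, median -0.06) and 4 rose in OE UPAT (19%, median 0.09), shares close to those of the 53 genes with medians nearer to 0. No difference between these lists was tested. AT5G19510, an elongation factor 1B subunit, had 158, 177 and 155 CPM in the OE APOLO-labelled libraries, against 216, 201 and 201 CPM in WT (-0.33 ± 0.08, edgeR FDR 0.00798). AT5G60390, one of several near-identical elongation factor 1A genes and so uncertain, had 659.9, 731 and 773 CPM in OE UPAT, against 549, 549 and 537 CPM in WT (0.40 ± 0.08, edgeR FDR 0.000984).

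Of 9 genes of the TOR pathway and related regulators, 3 fell in OE UPAT and 0 rose. LARP1a (AT5G21160), whose product is known to bind transcripts that TOR controls, had 88.9, 73.7 and 78.1 CPM in OE UPAT, against 123, 126 and 116 CPM in WT (-0.60 ± 0.08 SE, edgeR FDR 2.59e-05). S6 kinase 1 (annotated PK1, AT3G08730), which phosphorylates RPS6, averaged 43.9 ± 3.22 CPM in OE UPAT and 62.0 ± 4.55 CPM in WT (SD, n = 3; log2 fold change -0.50, edgeR FDR 0.000195). RAPTOR1 (AT3G08850), a partner of TOR, also fell (log2 fold change -0.28). Their paralogs did not pass in OE UPAT: S6K2 (AT3G08720) had -0.02 (edgeR FDR 0.926) and RAPTOR2 (AT5G01770) 0.38 (edgeR FDR 0.0662). The list had 2 positive and 7 negative values in OE UPAT, with a median of -0.16. In the OE APOLO-labelled libraries 0 of the 9 passed.

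Markers of other cells moved with some of these groups, and their part in the results was not tested. The 14 genes of dividing cells summed to 53.2 to 71.1 CPM in the OE APOLO-labelled libraries, with the lowest in library C, to 90.5 to 98.7 CPM in OE UPAT and to 71.7 to 81.6 CPM in WT. Of these, 2 rose and 1 fell in OE UPAT against WT, with 11 positive and 3 negative log2 fold changes (median 0.44). In the OE APOLO-labelled libraries against WT 0 rose and 1 fell, with 4 positive and 10 negative values (median -0.15). PCNA1 (AT1G07370), the sliding clamp of DNA replication, had 9.43, 8.5 and 7.46 CPM in OE UPAT, against 2.37, 3.58 and 3.03 CPM in WT (1.50 ± 0.20 SE, edgeR FDR 3.68e-05). The cyclin gene CYCB2;3 (AT1G20610) had 6.36, 6.54 and 5.78 CPM in the OE APOLO-labelled libraries and 10.8, 8.17 and 7.66 CPM in OE UPAT, against 12.6, 14.05 and 12 CPM in WT, and fell in both (-1.05 ± 0.14, edgeR FDR 0.000154, and -0.54 ± 0.14, edgeR FDR 0.00817). The 6 root markers summed to 2514 to 3249 CPM in the OE APOLO-labelled libraries, with the highest in library C, to 2459 to 2607 CPM in OE UPAT and to 2029 to 2329 CPM in WT. Most of this sum was PYK10 (AT3G09260), which averaged 2362 CPM in the OE APOLO-labelled libraries, 2202 CPM in OE UPAT and 1768 CPM in WT, while 4 of the 6 markers had negative log2 fold changes in OE UPAT (list median -0.37). The peroxidase gene AT3G01190 rose in the OE APOLO-labelled libraries (0.40) and in OE UPAT (0.35), and BGLU22 (AT1G66280) fell in OE UPAT (-0.52). The 6 seed storage genes summed to 0.604 to 21.1 CPM in the OE APOLO-labelled libraries, with library C lowest, to 1.18 to 3.92 CPM in OE UPAT and to 1.4 to 2.81 CPM in WT. Of the 5 floral markers 2 were tested, and PI (AT5G20240) fell in OE UPAT (-1.10).

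**Figure D4:**
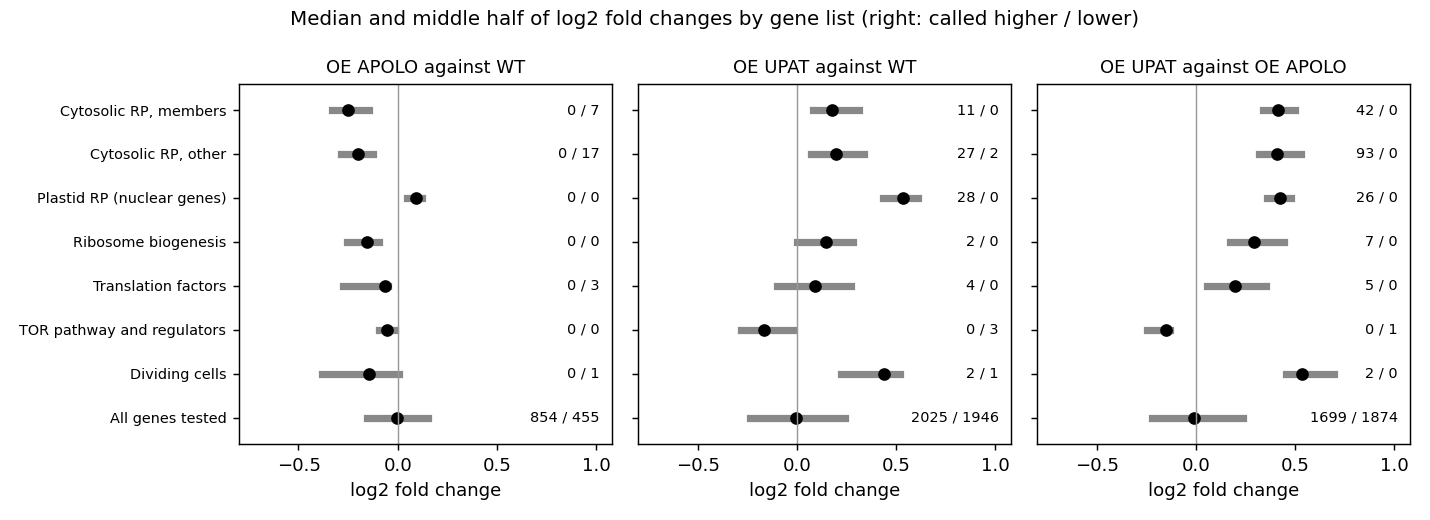
Median (point) and interquartile range (bar) of the log2 fold changes (horizontal axis) of the tested genes of each list, with the number called higher and lower on the right, for the same 3 comparisons. Cytosolic ribosomal protein genes lie left of 0 in the OE APOLO-labelled libraries (median -0.25) and right of 0 in OE UPAT (0.18), while plastid ribosomal protein genes lie near 0 in the OE APOLO-labelled libraries (0.09) and furthest right in OE UPAT (0.53).

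Short promoter motifs were more frequent among the 53 genes than among all genes, although 5 of the 53 held neither. In the 300 bases from 250 before to 50 after the annotated start, the telo box AAACCCTA was found on either strand in 25 of 53 genes (47.2%), against 6.22% of 27443 nuclear protein-coding genes. A site II element, TGGGCC or TGGGCT on either strand, was found in 44 of 53 (83%), against 21.7%. Both motifs may overlap each other. The site II element was present in 88.5% of the large-subunit genes and in 77.8% of the small-subunit genes with RACK1A. Among the 153 other ribosomal genes 46.4% had a telo box and 70.6% a site II element. Of the 11 genes that rose in OE UPAT, 2 had a telo box and 10 a site II element, against 23 and 34 of the 42 others. Of the 7 that fell in the OE APOLO-labelled libraries, 4 had a telo box and 4 a site II element, against 21 and 40 of the 46 others. These counts are a description, and no match says only that these letters are not in the window.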

How the data were processed

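RNA from whole seedlings was measured in 9 libraries. Per the study's methods and the submitters' processing notes, the authors trimmed 75-base single-end reads (Trimmomatic 0.36), removed ribosomal RNA (SortMeRNA), aligned to TAIR10 (STAR 2.5.2b) and counted over Araport11 genes (featureCounts, Subread 1.6.5). The authors deposited these values as estimated counts per feature, with no scaling for depth, between 3684 and 4224 of them fractions in each library. How shared reads and strand were treated is not given in the sources used here, so that paralogs with shared sequence and overlapping or antisense genes are uncertain. Of the 53 genes, 43 shared no 75-base exonic window with another gene, 5 shared over 5%, and 7 had exons overlapped by an antisense gene. The 31189 transposable element rows (0.233 to 0.272% of counts) were left out.

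The test had been chosen for whole counts, so the values were rounded before it. Tests used edgeR 4.0.16 in R 4.3.3 (TMM, filterByExpr, glmQLFit, glmQLFTest) with the 3 groups in 1 fit, over 20021 genes, at an adjusted p under 0.01. CPM were taken from the unrounded counts. A count of 3, the floor, was 0.207 to 0.393 CPM. Floors cover counting error only. The SE is the absolute log2 fold change over the square root of F. P-values set each group difference against the spread between replicate libraries, and not against that between independent lines. The fit was tested on simulated counts. Replicates of a group differed beyond counting noise. Positions, exonic lengths, promoters and proteins came from RefSeq TAIR10.1, whose nuclear coordinates are those of TAIR10. All 53 genes matched by locus identifier. Proteins and the 250 bases before each start were compared by global alignment.

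Values are given in every library for the 3 called genes with the smallest p per comparison and direction, the 4 families with the widest spread between paralogs in each comparison with WT, RACK1A, RPS6A and RPS6B, and in further lists for the called gene with the smallest p per direction. S6 kinase 1, RAPTOR1, RACK1C, the RPL4 family and the families compared only by share were chosen after their values were seen. The same holds for S6K2 and RAPTOR2. Some of the genes that meet this rule are not reported here. The members and lists were chosen with earlier results of these data known. Alternatives were DESeq2 1.42.0, other scalings, filters, thresholds and sets of libraries. Counts over the 48 genes with under 5% of windows shared were added after seeing the data.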

Additional observations from a re-analysis of the deposited data

How the results depend on the processing

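The medians of the 53 genes kept their sign under each of the 18 alternatives run: -0.30 to -0.17 for OE APOLO against WT, 0.16 to 0.23 for OE UPAT against WT, where 0.23 was reached without OE UPAT A, and 0.32 to 0.47 for OE UPAT against OE APOLO. Counts moved more. For OE APOLO against WT the 7 that fell became 15 with DESeq2, 11 with upper-quartile factors and 12 with no filter on low counts. Over all genes tested 2.28, 2.63 and 2.25% fell in these fits. The number was 0 with only the 2 groups compared (1.48% of all genes tested) and 22 at an adjusted p under 0.05 (5.49%). It was 0 when the log2 fold change also had to reach 0.5 in size (1.35%). For OE UPAT against WT the 11 that rose became 18 with only the 2 groups compared, where 12.3% of all genes tested rose. At an adjusted p under 0.05 the number was 19 (15.9% of all genes tested). It was 1 when the log2 fold change also had to reach 0.5 in size (6.76%). In this comparison 1 gene was lower with only the 2 groups compared and 1 at an adjusted p under 0.05. Over all genes tested 11.8 and 15.5% were lower in these settings. For OE UPAT against OE APOLO the 42 became 12 when the log2 fold change also had to reach 0.5 in size. Over all genes tested 5.4% were higher under this cutoff. Leaving out 1 library gave 0 to 11 genes that fell for OE APOLO against WT, against 0.906 to 3.21% of all genes tested. For OE UPAT against WT it gave 4 to 16 that rose, against 6.57 to 11.3% of all genes tested. There 0 to 1 fell, against 6.86 to 11%. For OE UPAT against OE APOLO it gave 22 to 44 that were higher, against 5.09 to 8.08%. The cause of these changes was not tested. The replicate letters are shared by the groups, and the sources used here do not say that they mark a batch. Deviations of libraries with the same letter correlated between -0.28 and 0.20. Libraries with different letters were not compared in this way, so whether the letters pair the libraries is not known. With the letter as a replicate block 7 genes fell in OE APOLO and 12 rose in OE UPAT against WT, and 42 were higher in OE UPAT than in OE APOLO. Over all genes tested these shares were 2.15, 9.94 and 8.1%. In OE APOLO AT5G15200 dropped out under the block and AT5G27850 came in. Of 500 repeats of the 25 calls of described genes, 406 stayed past the threshold, 94 did not and none changed direction. The settings that changed only a threshold reuse the main fit, so that no direction could change in them. At an adjusted p under 0.05 no call could be lost. Over the 48 genes with little shared sequence the counts were 7, 11 and 37.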
